A study of Mus musculus with 12 samples.

Results

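Muc13 encodes a transmembrane mucin, and it is described here across 12 mouse livers as 1 gene of the 55401 in the count table. It was selected on measured values, namely its counts in the Control and iTgMir483 groups and its relation to Mir483 across the iTgMir483 livers, so both are given as descriptions and neither was tested. The samples were livers of female mice at 15 weeks of age, 6 labelled Control and 6 labelled iTgMir483. The iTgMir483 mice carried a Tet-off Mir483 transgene at the Rosa26 locus, which also supplies the tetracycline transactivator and becomes active once Cre has removed a Neo cassette; expression then follows the broadly active Rosa26 promoter. Cre came from a CMV-Cre line that recombines in most tissues from early development, so transgene expression was not limited to hepatocytes or to the liver. Doxycycline, which silences the transgene, was given to the mothers through pregnancy and withdrawn after birth, an exposure that the littermate controls shared. The genotype of the controls is labelled only as control, and the labels do not give the Cre and transgene alleles of each mouse; in the cross that the study describes the mothers were homozygous for Cre, so controls of that cross carry Cre too.

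Cell-surface mucins are long glycoproteins whose extracellular part is densely coated with O-linked sugars. Muc13 has such a mucin domain, EGF-like modules, a SEA module at which mucins of this class are cleaved, a single membrane-spanning segment and a cytoplasmic tail. It is best known from the apical surface of intestinal epithelium, where it forms part of the glycocalyx, and MUC13 is also known from tumours of the digestive tract, among them liver cancers. Hepatocytes, the cells that make up most of the liver, are not a site for which it is known.

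Mir483 lies within Igf2, and its hairpin gives a pair of mature microRNAs. The mature sequences are shown because they define what could be searched for in Muc13. Both are from RefSeq on GRCm38.p6, minus strand, with the seed (bases 2 to 8) in capitals. The 3p arm lies at chr7:142654932-142654952 and the 5p arm at chr7:142654968-142654989.
mmu-miR-483-3p: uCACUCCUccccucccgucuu
mmu-miR-483-5p: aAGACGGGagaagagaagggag
The seeds differ, and their complements in a target read AGGAGTG for the 3p arm and CCCGTCT for the 5p arm. Muc13 (ENSMUSG00000022824) occupies chr16:33794037-33819934 on the plus strand of GRCm38. Its protein-coding transcripts were Muc13-201, with 12 exons and 2942 bases, and Muc13-202, with 13 exons and 2969 bases, both with a coding part of 1722 bases including the stop codon. Neither seed match occurred in either transcript, with 0 matches in the 5′ untranslated region (UTR), 0 in the coding part and 0 in the 3′ UTR of 1060 or 1053 bases. That result concerns these letters alone, and the mature microRNAs were not measured in these libraries.

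In control livers Muc13 was close to undetected, and in iTgMir483 livers it was detected in every library. The controls had 5, 2, 0, 1, 0 and 1 counts in replicates 1 to 6. The iTgMir483 livers had 199, 1532, 3410, 6929, 6337 and 7010 counts in replicates 1 to 6. The groups did not overlap, and even replicate 1 of iTgMir483, the lowest of its group, lay far above the highest control.

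Counts were scaled to a common library total with trimmed mean of M-values factors and are given as CPM. On that scale the controls had 0.314, 0.115, 0, 0.0342, 0 and 0.0914 CPM, a mean of 0.0924 ± 0.118 CPM (SD, n = 6). The iTgMir483 livers had 14.5, 109.3, 204.5, 507.7, 397.1 and 542.5 CPM, a mean of 295.9 ± 218.3 CPM (SD, n = 6). The lowest iTgMir483 liver was 46.2-fold above the highest control. Apart from replicate 1, each control library was at or under 3 counts, which corresponds to 0.103 to 0.274 CPM over the 6 control libraries, so differences among them were not detectable at this depth.

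Summed over the group, the controls had 9 Muc13 counts and the iTgMir483 livers 25417. The pooled level of the controls was 0.0876 CPM, with an exact 95% Poisson interval of 0.0400 to 0.166 CPM. The ratio of the pooled levels was 3338, with an interval of 1759 to 7301 that covers counting error only. Such a ratio rests almost wholly on the 9 counts of the controls. The fitted log2 fold change of 11.59 depends on the prior count used by the fit and is no bound. Muc13 passed the filter on low counts through the iTgMir483 libraries alone. In whole liver, more cells of a type that makes Muc13 and more Muc13 RNA per cell cannot be told apart.

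**Figure D1:**
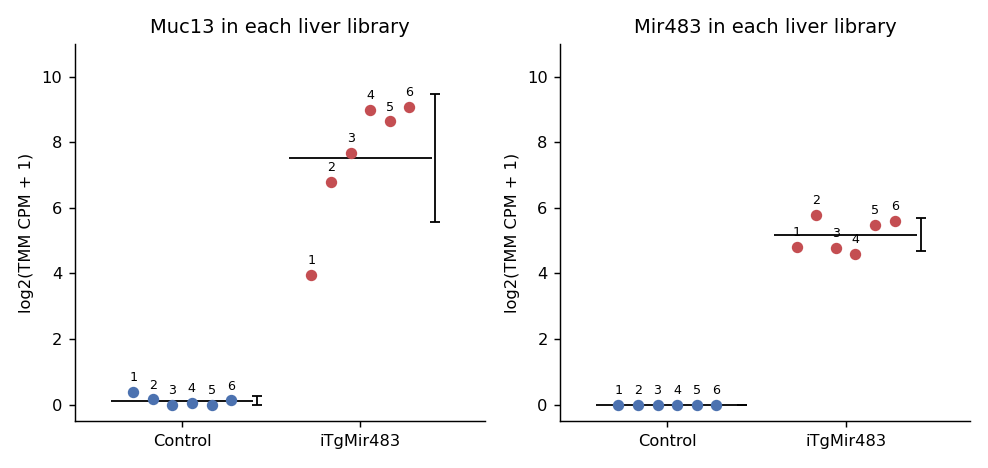
Level of Muc13 (left) and Mir483 (right) as log2(CPM + 1) in each of the 6 Control and 6 iTgMir483 livers, with each point labelled by its replicate number, a line at the group mean and a bar for ± 1 SD. The iTgMir483 livers range from 3.95 to 9.09 for Muc13 while Mir483 stays within a much narrower band, and both genes are at or near 0 in the controls.

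To place Muc13 among other genes of the same library, levels were divided by the exon-union length, 3038 bases for Muc13, which gives CPM per kb. The iTgMir483 livers had 4.77, 36.0, 67.3, 167.1, 130.7 and 178.6 CPM per kb. Among protein-coding genes with a count in the same library, Muc13 ranked 5018 of 14514 in replicate 1, 1003 of 14762 in replicate 2 and 560 of 14754 in replicate 3. It ranked 269 of 14658 in replicate 4, 305 of 14676 in replicate 5 and 215 of 14623 in replicate 6. Muc13 was therefore among the abundant messages of replicates 3 to 6 and a middling one in replicate 1. In the 4 controls with a Muc13 count its ranks ran from 12663 to 14581, and the controls with 0 counts, replicates 3 and 5, have no rank.

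The second feature of Muc13 was its spread among the iTgMir483 livers. On the CPM scale the highest of them, replicate 6, was 37.4-fold above the lowest, replicate 1. In ascending order the replicates stood as 1, 2, 3, 5, 4 and 6. The exact 95% Poisson intervals of neighbours in this order did not overlap, as shown by 496 to 520 CPM in replicate 4 and 530 to 555 CPM in replicate 6. These intervals cover counting error within a library, and each liver was measured once.

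The coefficient of variation (SD over mean) of Muc13 CPM in the iTgMir483 livers was 0.738. Of the 674 tested genes whose mean CPM there was within 2-fold of that of Muc13, 658 had a smaller coefficient (97.8%), and their median was 0.175. On the log2(CPM + 1) scale the SD of Muc13 was 1.96, and 6 of the 13205 tested genes had a larger one in these livers, where the median was 0.238. Without replicate 1 the coefficient was 0.537 against a median of 0.162, with 96.6% of such genes below Muc13. The wide spread was therefore not limited to the low value of replicate 1.

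Replicate 1 of both groups stood apart from the other libraries. On the second principal component of all tested genes, Control replicate 1 scored 37.4 and iTgMir483 replicate 1 scored 35.0, while the other 10 libraries lay between -14.8 and 1.05. The Muc13 values moved with this difference inside each group in opposite ways, the count of 5 in Control replicate 1 being the highest of the controls and the 199 in iTgMir483 replicate 1 the lowest of its group. What sets these libraries apart was not tested. Without both of them the mean Muc13 level of the iTgMir483 livers was 352.2 CPM. Library totals ran from 12244123 to 30431286 counts in the controls and from 12415140 to 15846175 in the iTgMir483 livers, so depth differed little among the livers that spread most in Muc13.

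Mir483 itself checks the labels. It had 0 counts in each control and 373, 761, 442, 318, 697 and 618 counts in iTgMir483 replicates 1 to 6. As CPM these were 27.2, 54.3, 26.5, 23.3, 43.7 and 47.8, a mean of 37.1 ± 13.1 CPM (SD, n = 6). The highest was 2.33-fold above the lowest, a far narrower range than that of Muc13. These counts come from polyadenylated transcripts that cover the Mir483 gene, not from the mature microRNAs.

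Across the iTgMir483 livers the order of Muc13 was not that of Mir483. Replicate 4 had the lowest Mir483 level and the second highest Muc13 level, and replicate 2 had the highest Mir483 level and the second lowest Muc13 level. Replicates 1 and 3 had nearly equal Mir483, 27.2 and 26.5 CPM, and Muc13 levels of 14.5 and 204.5 CPM. On the log2(CPM + 1) scale Pearson's r was 0.192 and Spearman's rho was -0.0857 (n = 6 livers). Without replicates 2 and 4, whose Mir483 levels lay farthest from the median, r was 0.737 and rho was 0.80 (n = 4), and without replicate 1 r was -0.296 (n = 5). Sign and size both hung on which livers entered. Of 9695 genes with a mean of at least 5 CPM in these livers, Mir483 ranked 3809 by its r with Muc13, so 39.3% of the genes had a higher one.

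**Figure D2:**
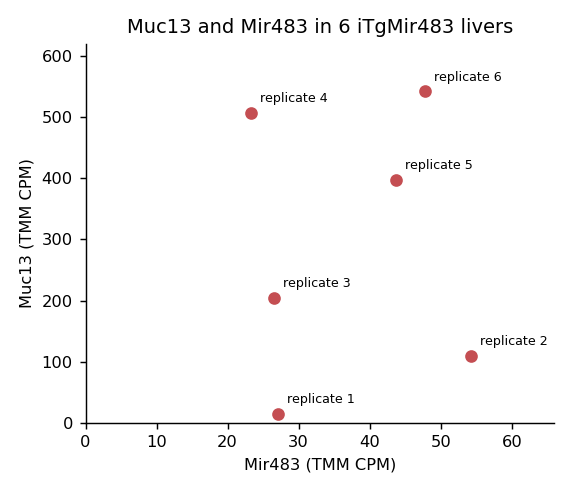
Muc13 level against Mir483 level, both in CPM, in the 6 iTgMir483 livers, 1 point per liver. Replicate 4 combines the lowest Mir483 with 507.7 CPM of Muc13, and replicate 2 the highest Mir483 with 109.3 CPM of Muc13.

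Other mucins were examined to see whether Muc13 stood alone in its family. Each gene was tested between the groups with the quasi-likelihood F-test of edgeR, its p-value was adjusted by the Benjamini-Hochberg method over the 13205 genes tested, and a gene was called changed at an adjusted p under 0.05 with a fold change over 1.5. Of 21 listed mucins and mucin-like surface proteins other than Muc13, 16 were matched by symbol and 4 had enough counts to be tested. Of these 4, 2 rose and 0 fell, where 8.41% of all tested genes rose and 2.73% fell. Their median log2 fold change was 0.56, beside 0.0058 for all tested genes. With 4 genes, these figures are a description of those genes. The filter on low counts keeps a gene that is high in either group alone. Genes low in the controls, such as Muc1, Gcnt1, St6galnac4, Krt7 and Slc12a8, could thus enter through the iTgMir483 livers. Nothing is read from the share called in a list that holds such genes.

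Muc1, the transmembrane mucin of ductal and glandular epithelia, rose. Its controls had 0.753, 0.690, 0.837, 0.650, 0.938 and 0.274 CPM, and its iTgMir483 livers had 2.04, 1.57, 3.18, 1.32, 3.26 and 2.63 CPM. The groups did not overlap, and the log2 fold change was 1.74 (SE 0.291, edgeR adjusted p = 0.00163). The low counts behind it, 72 over the controls and 207 over the iTgMir483 livers, set the precision. Per length Muc1 reached a mean of 0.994 CPM per kb in the iTgMir483 livers, where Muc13 had a mean of 97.4 CPM per kb.

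Mcam, a mucin-like adhesion molecule of endothelial and perivascular cells, also rose. It had between 7.95 and 9.51 CPM in the controls, and 8.74, 12.8, 17.3, 18.3, 19.2 and 20.6 CPM in iTgMir483 replicates 1 to 6. Replicate 1 lay within the range of the controls, and the other 5 livers lay above it. The log2 fold change of Mcam was 0.87 (SE 0.173, edgeR adjusted p = 0.00425), and its r with Muc13 across the iTgMir483 livers was 0.981 (n = 6).

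Cd164, a sialomucin found on many cells and in lysosomes, was the most abundant mucin-like gene of the controls per length, with 43.0 CPM per kb there and 34.4 CPM per kb in the iTgMir483 livers. Its log2 fold change of -0.32 did not pass the test (SE 0.115, edgeR adjusted p = 0.0637). Emcn, the endothelial sialomucin endomucin, had a log2 fold change of 0.25 (SE 0.180, edgeR adjusted p = 0.359). Per length, Muc13 in replicates 3 to 6 of iTgMir483 therefore lay above the mean of every one of these mucin-like genes in either group.

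The gel-forming and other surface mucins were too low to test. Muc2, the main gel-forming mucin of intestinal goblet cells, had 22 counts summed over the controls and 11 over the iTgMir483 livers. The surface mucins Muc4 and Muc16 had 10 against 3 and 32 against 25 counts, and the gastric mucin Muc6 had 7 against 1. Muc3a, Muc20 and Muc19 each had 1 count in the controls and 0 in the iTgMir483 livers. Muc3, Muc15, Muc5ac, Muc5b and Prol1 had 0 counts in all 12 libraries. Among the matched genes of this list, Muc13 alone went from near 0 in the controls to 109.3 CPM or more in most iTgMir483 livers.

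**Figure D3:**
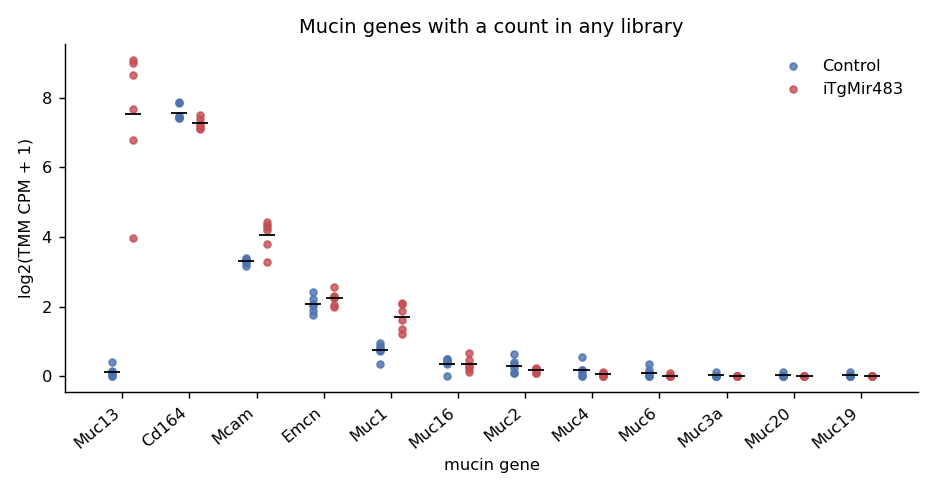
Levels of Muc13 and of every listed mucin with a count, as log2(CPM + 1), 1 point per liver for 6 Control and 6 iTgMir483 livers, with lines at the group means. Muc13 shows the widest gap, Mcam and Muc1 smaller ones, and the mucins right of Muc1 stay near 0 in both groups.

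The enzymes that build O-linked sugars on mucins were described next, because a mucin needs them. Of 31 listed genes, 17 were tested, of which 4 rose and 0 fell, beside 8.41% and 2.73% of all tested genes. The median log2 fold change of the 17 was 0.32, beside 0.0058 for all tested genes. Gcnt1, which branches O-glycans, had a log2 fold change of 1.82 (SE 0.475, edgeR adjusted p = 0.0169), with 5.42 CPM in iTgMir483 replicate 4 and 0.660 to 2.32 CPM in the others. St6galnac4, a sialyltransferase, rose by 1.58 on the log2 scale (SE 0.365, edgeR adjusted p = 0.00898). Galnt6 and Galnt10, which attach the first sugar, rose by 1.19 (SE 0.354, edgeR adjusted p = 0.0307) and by 0.76 (SE 0.136, edgeR adjusted p = 0.00249). The call of Galnt6 was lost on leaving out any of 5 single libraries (Control replicate 1, 4 or 6, iTgMir483 replicate 4 or 6), with edgeR adjusted p of 0.0525 to 0.0689, and under limma-voom. Levels of these 4 enzymes were low, from 2.13 CPM for Gcnt1 to 13.6 CPM for Galnt10 on average in the iTgMir483 livers. C1galt1 and its chaperone C1galt1c1, which extend the first sugar, had log2 fold changes of -0.29 (edgeR adjusted p = 0.195) and -0.21 (edgeR adjusted p = 0.165).

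Proteins that shed or bind mucins were described in the same way. Of 8 listed and tested genes 4 rose and 0 fell, beside 8.41% and 2.73% of all tested genes, and the median log2 fold change was 0.49. They were the galectins Lgals1 (log2 fold change 1.67, SE 0.282, edgeR adjusted p = 0.0017) and Lgals3 (1.0, SE 0.25, edgeR adjusted p = 0.0135), the hyaluronan receptor Cd44 (1.02, SE 0.301, edgeR adjusted p = 0.0293) and the adhesion molecule Icam1 (0.76, SE 0.139, edgeR adjusted p = 0.00281). The call of Cd44 was lost without Control replicate 2 or 6 or iTgMir483 replicate 4, 5 or 6 (edgeR adjusted p of 0.052 to 0.0631), and under limma-voom (adjusted p = 0.0741). Lgals1 ran against Muc13 among the iTgMir483 livers, with 44.6 CPM in replicate 1 and 15.1 to 26.0 CPM in the others (r = -0.822, n = 6). Among the sheddases, Adam10 had a log2 fold change of 0.23 (edgeR adjusted p = 0.0779) and Adam17 one of 0.06 (edgeR adjusted p = 0.723), so neither passed.

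The genes around Muc13 on chromosome 16 were described to see whether the rise extended along the chromosome. Within 500 kb of its start there were 10 annotated genes, of which 6 were tested. Of these 6, 1 rose and 0 fell, where 8.41% of all tested genes rose and 2.73% fell. The gene that rose, Slc12a8, had 3 to 13 counts in each control. It met the filter on low counts through the iTgMir483 livers, so nothing is read from the share. In 2 of the 6 the groups did not overlap, where 7.92% of all tested genes showed this. The median log2 fold change of the 6 was 0.37.

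Slc12a8, a member of the cation-chloride cotransporter family whose start lies 277 kb upstream, rose from 0.461 ± 0.181 to 1.15 ± 0.375 CPM (SD, n = 6 each). Its log2 fold change was 1.30 (SE 0.304, edgeR adjusted p = 0.00974), and its groups did not overlap. Itgb5, the integrin beta subunit gene that begins 35.6 kb downstream, had 61.8 ± 5.98 CPM in the controls and 86.5 ± 10.9 CPM in the iTgMir483 livers (SD, n = 6 each). Its groups did not overlap either, but its log2 fold change of 0.49 (SE 0.0992, edgeR adjusted p = 0.00475) was under the fold threshold. Both differences were small beside that of Muc13.

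Umps, the enzyme that completes uridine monophosphate synthesis, had a log2 fold change of 0.38 (SE 0.106, edgeR adjusted p = 0.0234), again under the fold threshold. Heg1, an endothelial transmembrane protein, had one of 0.37 (SE 0.139, edgeR adjusted p = 0.0807). Zfp148, a zinc finger transcription factor, and the neighbouring noncoding gene 1700007L15Rik had log2 fold changes of -0.22 (SE 0.112, edgeR adjusted p = 0.191) and -0.24 (SE 0.277, edgeR adjusted p = 0.586).

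Gm15657, annotated as antisense at chr16:33770430-33796874 on the minus strand, overlaps the first part of Muc13. It had 0 counts in every control and 1, 1, 1, 5, 19 and 4 counts in iTgMir483 replicates 1 to 6, too few for the test. Its highest value fell in replicate 5 and not in replicate 6, where Muc13 was highest. The libraries were stranded but the strand setting used in counting is not given in the sources used here, so reads of Gm15657 and Muc13 cannot be fully told apart. The other untested neighbours were Gm34967 with 0 against 1 count, Gm15829 with 4 against 1 and Gm49594 with 6 against 1, summed over controls and iTgMir483 livers.

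**Figure D4:**
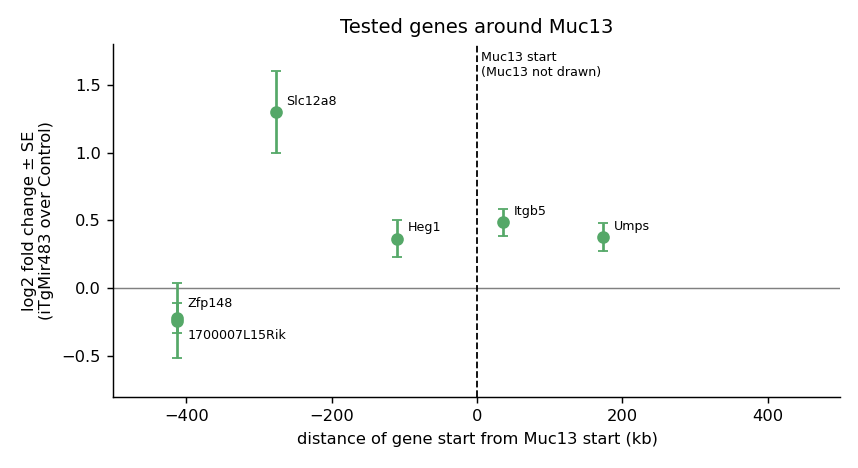
Log2 fold change (iTgMir483 over Control, ± SE) of the 6 tested genes within 500 kb of Muc13, placed by the distance of their starts from the Muc13 start in kb. Slc12a8 at 277 kb upstream has the largest value, 1.30, and the Muc13 value is not drawn.

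The annotation places starts of Muc13 at a pair of positions, and the windows from 250 bases before to 50 bases after each are shown because the gene went from near 0 to abundant. They are from RefSeq on GRCm38.p6, plus strand, at chr16:33793787-33794086 (upstream start) and chr16:33794239-33794538 (downstream start). Capitals mark matches to the motifs searched on both strands, which were AP-1 (TGANTCA), STAT (TTCNNNGAA), NF-kB, the motif AGATAA of GATA factors, and the short motif CAAAGT of HNF4.
upstream start: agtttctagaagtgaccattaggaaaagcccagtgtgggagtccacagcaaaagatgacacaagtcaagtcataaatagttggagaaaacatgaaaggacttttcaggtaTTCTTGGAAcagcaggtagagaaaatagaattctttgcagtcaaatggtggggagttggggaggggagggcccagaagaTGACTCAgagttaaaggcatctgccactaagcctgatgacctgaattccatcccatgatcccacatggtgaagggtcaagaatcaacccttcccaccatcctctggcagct
downstream start: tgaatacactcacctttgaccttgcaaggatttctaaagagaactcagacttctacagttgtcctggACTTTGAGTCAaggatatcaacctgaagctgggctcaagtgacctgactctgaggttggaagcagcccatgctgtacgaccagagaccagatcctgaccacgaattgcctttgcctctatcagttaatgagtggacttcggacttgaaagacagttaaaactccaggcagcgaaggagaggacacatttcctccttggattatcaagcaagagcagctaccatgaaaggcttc
The upstream window held a STAT match at -140 and an AP-1 match at -61, counted from the start. The downstream window held an HNF4 match at -183 that overlaps an AP-1 match at -179. Such letters are common, as 7.81% of 32851 promoters of the same length held the AP-1 motif, 8.30% the STAT motif and 14.4% the HNF4 motif. NF-kB and GATA motifs, held by 5.80% and 11.2% of promoters, had no match in these windows.

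Transcription factors of liver and gut epithelium were described from a list of 21, of which 12 were tested, 1 rose and 0 fell. That share is near the 8.41% of all tested genes that rose. Their median log2 fold change was -0.16. Ehf, an epithelial ETS factor, had 0.934 ± 0.338 CPM in the controls and 2.0 ± 0.982 CPM in the iTgMir483 livers (SD, n = 6 each), with a log2 fold change of 1.08 (SE 0.355, edgeR adjusted p = 0.0470). That call was lost under limma-voom (adjusted p = 0.0962) and on leaving out any of 9 single libraries, that is all but Control replicate 1 and iTgMir483 replicates 2 and 4, with edgeR adjusted p of 0.0503 to 0.119. Hnf4a, a nuclear receptor central to hepatocyte identity, had a log2 fold change of -0.37 that did not pass (edgeR adjusted p = 0.148). Cdx1 and Cdx2, which specify intestinal epithelium, had 0 counts in all libraries.

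Of 26 genes of the ErbB, TNF/NF-kB and IL6/STAT3 pathways, in which MUC13 has been placed, 24 were tested, 4 rose and 0 fell. Among all tested genes 8.41% rose and 2.73% fell. The median log2 fold change of the 24 was 0.08, beside 0.0058 for all tested genes. Relb, an NF-kB subunit of the non-canonical branch, rose from 2.0 ± 0.384 to 5.31 ± 1.97 CPM (SD, n = 6 each), with groups that did not overlap and a log2 fold change of 1.39 (SE 0.236, edgeR adjusted p = 0.00174). Its partner Nfkb2 rose by 0.78 (SE 0.182, edgeR adjusted p = 0.00914), the TNF receptor gene Tnfrsf1b by 1.09 (SE 0.350, edgeR adjusted p = 0.0424) and the IL6 feedback gene Socs3 by 0.64 (SE 0.195, edgeR adjusted p = 0.0338). The call of Tnfrsf1b was lost without Control replicate 1, 2, 4 or 6 or iTgMir483 replicate 4 or 5 (edgeR adjusted p of 0.0652 to 0.0866), and under limma-voom (adjusted p = 0.0663). That of Socs3 was lost without any 1 of Control replicates 2 to 6 or without iTgMir483 replicate 4 or 6 (0.0517 to 0.0792). All 4 had a positive r with Muc13 across the iTgMir483 livers, between 0.670 for Tnfrsf1b and 0.754 for Socs3 (n = 6). Members that were not called ran either way, from -0.744 for Rel to 0.809 for Rela. The summed level of the list had an r of 0.468 with Muc13 (n = 6), so its members differed in their relation to Muc13. Egfr, the receptor of epidermal growth factor, had a log2 fold change of -1.21 that did not pass (SE 0.411, edgeR adjusted p = 0.0529). It passed as lower under limma-voom (adjusted p = 0.0217), under DESeq2 (adjusted p = 0.0429) and when no count filter was set (edgeR adjusted p = 0.0311). Without iTgMir483 replicate 4, whose Egfr level of 205 CPM lay above the 24.0 to 68.6 CPM of the rest, its log2 fold change was -1.81 (edgeR adjusted p = 0.00127), and the IL6 receptor gene Il6ra also passed as lower (log2 fold change -0.89, edgeR adjusted p = 0.0372), so that 2 members then rose and 2 fell.

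Markers of the cells that could bring Muc13 RNA into a liver sample were set beside it. Bile duct cells are the epithelium of the liver that carries mucins. Of 18 bile duct markers 13 were tested, 7 rose and 0 fell, beside 8.41% and 2.73% of all tested genes. The median log2 fold change of the 13 was 0.95, beside 0.0058 for all tested genes. Epcam, the epithelial adhesion molecule, rose from 1.64 ± 0.644 to 4.36 ± 1.34 CPM (SD, n = 6 each), with a log2 fold change of 1.41 (SE 0.289, edgeR adjusted p = 0.0049). Spp1, the secreted matrix protein osteopontin, rose from 25.6 ± 7.62 to 63.6 ± 11.7 CPM (SD, n = 6 each), with a log2 fold change of 1.31 (SE 0.181, edgeR adjusted p = 0.000517). Krt7, a keratin of ducts, rose by 1.34 (SE 0.309, edgeR adjusted p = 0.00887), the membrane protein gene Prom1 by 1.37 (SE 0.276, edgeR adjusted p = 0.00446) and the integrin subunit gene Itgb4 by 1.25 (SE 0.208, edgeR adjusted p = 0.00157).

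Other defining duct markers did not pass the test or were too low for it. Krt19, the usual keratin marker of the duct, had 1.26 ± 0.403 CPM in the controls and 1.34 ± 0.286 CPM in the iTgMir483 livers (SD, n = 6 each), and a log2 fold change of 0.10 (SE 0.258, edgeR adjusted p = 0.825). Sox9, a duct and progenitor transcription factor, had one of 0.26 (SE 0.215, edgeR adjusted p = 0.425). Cftr, the duct chloride channel, was too low to test, at 0.199 CPM in the controls and 0.220 CPM in the iTgMir483 livers on average.

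The summed level of the 18 duct markers was 212.1 to 268.7 CPM in the controls and 258.4 to 310.7 CPM in the iTgMir483 livers. Across the iTgMir483 livers its r with Muc13 was -0.321 (n = 6). Aqp1, a water channel of ducts that endothelium also carries, made up much of this sum, with 91.7 to 156 CPM in the iTgMir483 livers, and had an r of -0.622. Without Aqp1, an alternative chosen after its values were seen, the sum of the other 17 was 89.3 to 121.7 CPM in the controls and 134.1 to 201.0 CPM in the iTgMir483 livers, and its r with Muc13 was 0.317 (n = 6). Of the 13 tested markers 9 had a positive and 4 a negative r with Muc13, among them Sox9 with 0.687, Spp1 with 0.442, Itgb4 with 0.308, Epcam with 0.186 and Krt19 with -0.260. The sign of the relation thus changed with the marker. Per length, Muc13 was above 14 of the 18 duct markers in iTgMir483 replicate 1, above 17 in replicate 2 and above all 18 in replicates 3 to 6. The ratio of Muc13 to the sum of the 18 markers, both in CPM per kb, was 0.0434, 0.377, 0.602, 1.63, 1.18 and 1.82 in replicates 1 to 6. A single mucin gene thus exceeded the markers' sum in replicates 4, 5 and 6, and the part of duct cells in the level of Muc13 was not tested.

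Markers of intestinal epithelium, where Muc13 is best known, were examined in the same way. Of 22 markers 2 were tested and 0 passed with edgeR, 0 with DESeq2 and 0 with limma-voom, and 0 had an unadjusted p under 0.05 with edgeR. Fabp2, a fatty acid binding protein, had 108.8 ± 30.5 CPM in the controls and 115.4 ± 37.8 CPM in the iTgMir483 livers (SD, n = 6 each), with a log2 fold change of 0.09 (edgeR adjusted p = 0.835). Lgals4, a galectin, had a log2 fold change of -0.03 (edgeR adjusted p = 0.942) although its r with Muc13 across the iTgMir483 livers was 0.952 (n = 6). The other defining markers Cdx1, Cdx2, Sis and Zg16 had 0 counts in all libraries, among 11 such markers of the list. The summed level of the 22 markers was 91.4 to 205.7 CPM in the controls and 109.5 to 211.7 CPM in the iTgMir483 livers, so the groups overlapped over nearly the whole range. Fabp2 and Lgals4 made up nearly all of this sum, Lgals4 with means of 64.1 CPM in the controls and 62.8 CPM in the iTgMir483 livers. The sum therefore describes Fabp2 and Lgals4, which the controls also carried, and not the list.

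Exocrine pancreas, which can be carried over when a liver is dissected, was near the floor in most of its markers. Of its 11 markers, Cpa1, Cpb1, Cel and Clps had 0 counts in all libraries, and the summed level was 4.12 to 14.4 CPM in the controls and 6.19 to 12.1 CPM in the iTgMir483 livers. Liver identity itself was plain from the hepatocyte markers, led by Alb at 36000 to 108000 CPM in the iTgMir483 livers. The summed level of the hepatocyte markers was 155000 to 206200 CPM in the controls and 91650 to 163800 CPM in the iTgMir483 livers. Of 14 tested hepatocyte markers 1 rose and 3 fell, beside 8.41% and 2.73% of all tested genes. The median log2 fold change of the 14 was -0.40, beside 0.0058 for all tested genes. The fibrinogen chain gene Fgb rose by 1.01 (SE 0.233, edgeR adjusted p = 0.00878), while the urea cycle genes Cps1 (log2 fold change -1.21, SE 0.247, edgeR adjusted p = 0.00476) and Ass1 (-1.04, SE 0.191, edgeR adjusted p = 0.00274) and the cytochrome Cyp2f2 (-0.81, SE 0.237, edgeR adjusted p = 0.0283) fell.

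Since MUC13 is known from liver tumours, 12 fetal liver and oncofetal genes were set beside it. Of these 4 were tested, 2 rose and 0 fell, where 8.41% of all tested genes rose and 2.73% fell. The median log2 fold change was 1.06, beside 0.0058 for all tested genes, and describes those 4 genes only. Cd24a, a heavily glycosylated surface protein, had a log2 fold change of 1.61 (SE 0.280, edgeR adjusted p = 0.00203), and Igf2bp2, an RNA-binding protein of fetal tissue, one of 1.49 (SE 0.264, edgeR adjusted p = 0.00228). Their r with Muc13 across the iTgMir483 livers was -0.325 for Cd24a and -0.309 for Igf2bp2 (n = 6). H19, the imprinted noncoding RNA of fetal tissues, was too low to be tested. It had 6, 0, 5, 5, 4 and 0 counts in the controls and 3, 11, 19, 93, 115 and 24 counts in iTgMir483 replicates 1 to 6, and its r with Muc13 was 0.775 (n = 6). Like Muc13 it was lowest in iTgMir483 replicate 1, where it lay within the range of the controls. H19 passed as higher with no count filter (log2 fold change 3.87, edgeR adjusted p = 0.00184), and where leaving out any 1 control or iTgMir483 replicate 1, or both replicate 1 libraries, brought it through the filter (edgeR adjusted p of 0.00201 to 0.0189). Afp and Gpc3, the classical fetal and tumour genes of liver, had log2 fold changes of 0.63 (edgeR adjusted p = 0.350) and 0.41 (edgeR adjusted p = 0.319).

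The genes whose levels ran most closely with Muc13 across the iTgMir483 livers were found by Pearson's r of log2(CPM + 1) over the 9695 genes with a mean of at least 5 CPM. The values describe 6 livers and carry no p, and libraries that stand apart weigh heavily in them. In all, 393 genes (4.05%) had an absolute r of at least 0.9, and 109 of them kept this with the same sign without replicate 1. The median r was -0.0079.

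The 10 highest were Tle1, Arhgef1, Cerk, Baiap2l1, Tnip1, Lyve1, Zfp9, Hhipl2, Cdkn1a and Zfp623, with r from 0.993 to 0.982. In each of the 10, iTgMir483 replicate 1 was the lowest of its group, and in 7 of the 10 Control replicate 1 was the lowest control. The place of iTgMir483 replicate 1 follows largely from the choice by r, as its Muc13 lay 2.83 log2 units under the next liver. Without iTgMir483 replicate 1 the r of the 10 was still 0.925 to 0.983 (n = 5), although 0 of them were then among the 10 highest. The genes named here are thus only examples of a large set whose levels ran closely with Muc13, not always in its exact order of livers.

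Hhipl2, a gene related to the hedgehog-interacting protein, resembled Muc13 in both respects. It had 0.502, 2.65, 3.28, 3.04, 2.54 and 3.20 CPM in the controls and 5.75, 16.3, 27.2, 30.2, 32.7 and 34.2 CPM in the iTgMir483 livers. The groups did not overlap, and the log2 fold change was 3.26 (SE 0.420, edgeR adjusted p = 0.000346). Its highest liver was 5.95-fold above its lowest, far less than for Muc13.

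Cdkn1a, which encodes the cell cycle inhibitor p21, had a range wider than that of Muc13 but no group difference. It had 2.91, 21.2, 41.4, 169, 69.7 and 96.1 CPM in iTgMir483 replicates 1 to 6, so that its highest liver was 58.0-fold above its lowest. The controls ran from 4.08 to 90.6 CPM, and the log2 fold change of 0.69 did not pass the test (SE 0.736, edgeR adjusted p = 0.550). The liver to liver pattern of Cdkn1a therefore did not come with a difference between the groups that the test could detect.

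Of the 10 genes 4 were called, all higher. Calls in either direction covered 11.1% of all tested genes, and of the 9695 genes from which the 10 came 6.92% were called higher and 2.17% lower. The minimum of 5 CPM was set in the iTgMir483 livers, and Zfp9 and Hhipl2, with control means of 2.37 and 2.54 CPM, met it through that group alone, so nothing is read from the share. Besides Hhipl2 these were Tnip1, which restrains NF-kB signalling (log2 fold change 0.75, SE 0.131, edgeR adjusted p = 0.00199), the ceramide kinase gene Cerk (0.86, SE 0.236, edgeR adjusted p = 0.0209) and Zfp9 (1.37, SE 0.422, edgeR adjusted p = 0.0352). The calls of Cerk and Zfp9 were lost under limma-voom, with adjusted p of 0.0539 and 0.201, and that of Zfp9 also without any 1 of Control replicates 1 to 5 or iTgMir483 replicates 3 to 6 (edgeR adjusted p of 0.0517 to 0.0798). Baiap2l1, which links membranes to actin, had a log2 fold change of -0.58 that did not pass (SE 0.25, edgeR adjusted p = 0.121) and passed without Control replicate 1 (-0.73, edgeR adjusted p = 0.0229). Thus a gene could follow Muc13 from liver to liver while its group mean lay on the side of lower expression in iTgMir483.

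Lyve1, the hyaluronan receptor of lymphatic and sinusoidal endothelium, ran from 2.04 CPM in replicate 1 to 20.5 CPM in replicate 4. Its log2 fold change was -0.16 (SE 0.415, edgeR adjusted p = 0.826). The corepressor gene Tle1, the guanine nucleotide exchange factor gene Arhgef1 and Zfp623 had narrow ranges, with the highest liver 1.64-fold, 1.31-fold and 1.40-fold above the lowest. A high r therefore did not go with a large change.

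The 5 lowest were Mrrf (r = -0.996), Serpinb1a (-0.984), Rbm15b (-0.981), Pdcd2l (-0.980) and Fam210a (-0.979). In each of them iTgMir483 replicate 1 was the highest of its group, which again follows largely from the choice by r. None of these 5 was called by edgeR. Serpinb1a, an inhibitor of neutrophil proteases, had 19.9, 9.06, 7.02, 3.08, 4.01 and 2.79 CPM in replicates 1 to 6, a 7.13-fold range in exactly the reverse order of Muc13. Its log2 fold change was -0.40 (SE 0.390, edgeR adjusted p = 0.503) and passed without iTgMir483 replicate 1 (-0.96, edgeR adjusted p = 0.0263). Mrrf, the mitochondrial ribosome recycling factor, had the lowest r with a range of only 1.11-fold.

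**Figure D5:**
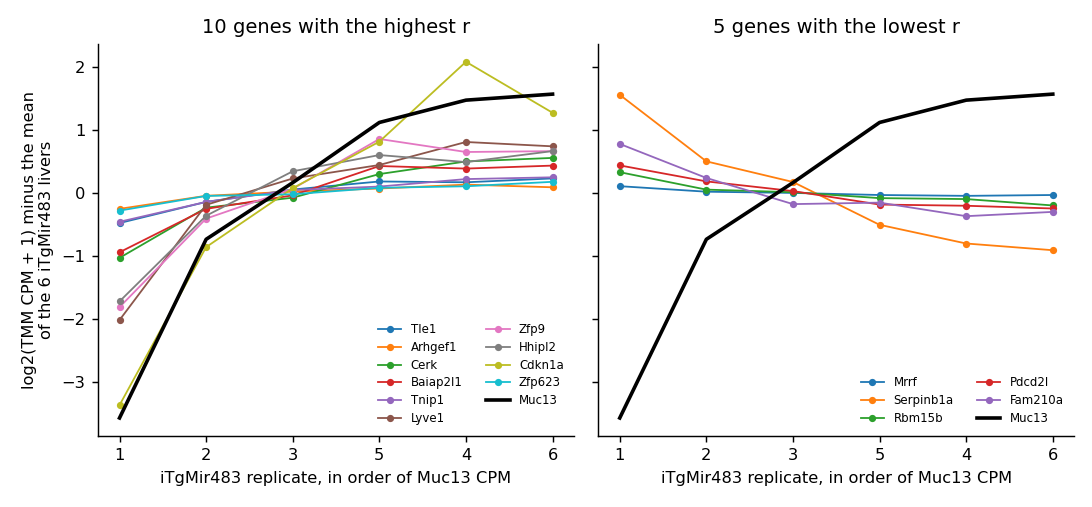
Level of the 10 genes with the highest r (left) and the 5 with the lowest r (right) with Muc13, as log2(CPM + 1) minus the mean of the 6 iTgMir483 livers, with the livers in ascending order of Muc13 and Muc13 as the thick black line. Replicate 1 lies lowest in each of the 10 and highest in each of the 5, and Cdkn1a and Muc13 span the widest ranges on the left.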

How the data were processed

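Polyadenylated RNA of 12 livers was sequenced in single libraries that carry 1 pool label. The authors aligned reads to GRCm38 with STAR and deposited raw counts per gene from Ensembl genes, and reads carry no molecular identifiers, so intervals cover counting error only. Whether replicates are separate litters is not stated, and p-values measure the spread between these animals. Symbols and positions came from GENCODE M21 (same build, another release), which named 55141 of the 55401 identifiers, and every row named a gene and every column a sample. Replicate pairs differed beyond sampling noise (smallest chi-square per gene 15.6).

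Genes were kept with filterByExpr (13205 genes), scaled by trimmed mean of M-values and tested between groups by the quasi-likelihood F-test of edgeR without covariates (edgeR 4.0.16, limma 3.58.1, R 4.3.3), which was tested on simulated data. Calls needed a fold over 1.5 and a Benjamini-Hochberg adjusted p under 0.05. Poisson intervals are exact at 95%, the floor is 3 counts, and correlations used log2(CPM + 1). Alternatives were limma-voom, DESeq2 1.42.0, a block on the replicate number, RLE scaling, other filters on counts and leaving out libraries. Genes named were Muc13, Mir483, all mucins and neighbours with a count, defining markers, up to 5 called members of each list by size of change, and the 10 highest and 5 lowest by r with Muc13; a few further members are named as examples chosen after their values were seen (Adam10, Adam17, C1galt1, C1galt1c1, Egfr, Il6ra, Afp, Gpc3, H19, Aqp1 and Lgals4). The gene, its lists and this rule were chosen with earlier results of these data known, and some list members that remain in the counts are not reported here. Of the mucins Muc7, Muc10, Muc12, Muc17 and Muc21 had no match by symbol, nor had the hepatocyte gene Tf, and St6galnac2 matched 2 identifiers and was not used.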

Additional observations from a re-analysis of the deposited data

Results flagged for a closer look

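For each group of 6 livers and each named gene, the gap of the highest or lowest liver to its nearest neighbour was divided by the range of the group. Of 127 groups, 13 exceeded Dixon's 95% critical value of 0.625, where 1 in 20 would be about 6.35. That figure holds for independent groups with normal values, and these groups share the same 12 libraries. Of the 13, 6 fell in a replicate 1 library. The named genes include those chosen by r with Muc13, for which an extreme iTgMir483 replicate 1 follows largely from the choice. Nothing is therefore read from either number. Muc13 was among them in the controls, where replicate 1 had 0.314 CPM and the others 0 to 0.115 CPM (ratio 0.633), a difference that rests on 5 counts. Because Muc13 was selected on these values, its flag is a description and not a test. The exact 95% Poisson interval of Control replicate 1, 0.102 to 0.732 CPM, overlapped that of Control replicate 2, 0.0139 to 0.416 CPM. Among the iTgMir483 livers Muc13 itself was not flagged, because its values were spread over the whole range.

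In iTgMir483 replicate 4, which had the second highest Muc13, Gcnt1 had 5.42 CPM against 0.660 to 2.32 CPM in the others (0.652). There Tnfrsf1b had 260 CPM against 54.1 to 125 CPM (0.657), and Lgals3 had 24.2 CPM against 7.68 to 11 CPM (0.799). Egfr had 205 CPM there against 24.0 to 68.6 CPM (0.754). Cd24a was low in the same liver, at 2.42 CPM against 4.82 to 5.96 CPM (0.680). In iTgMir483 replicate 1, which had the lowest Muc13, Lgals1 had 44.6 CPM against 15.1 to 26.0 CPM (0.631) and Serpinb1a had 19.9 CPM against 2.79 to 9.06 CPM (0.633), while Apoa1 was low at 3100 CPM against 10400 to 14000 CPM (0.671).

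Among the controls, replicate 1 was low in a pair of genes that follow Muc13 in the iTgMir483 livers, Baiap2l1 with 33.9 CPM against 77.8 to 94.5 CPM (0.724) and Hhipl2 with 0.502 CPM against 2.54 to 3.28 CPM (0.736). Control replicate 2 was high in Arhgef1, with 68.3 CPM against 54.8 to 58.5 CPM (0.723), and Control replicate 6 in the neighbour 1700007L15Rik, with 3.29 CPM against 1.0 to 1.54 CPM (0.766).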

How the results depend on the processing

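The mean Muc13 level of the iTgMir483 livers lay between 246.6 and 352.2 CPM under the other scalings and on leaving out libraries, beside 295.9 CPM. Leaving out 1 of 6 livers can move a mean by only a part of its SD, so this range does not test the level. The number of all called genes stayed between 1190 and 1696 beside 1470. With at least 10 counts in every sample, calls were 1 mucin in place of 2, 2 O-glycosylation genes in place of 4 and 4 duct markers in place of 7. There were also 0 transcription factors in place of 1, 1 fetal gene in place of 2 and 0 neighbours in place of 1. The genes whose calls went were Muc1, Gcnt1, St6galnac4, Krt7, Epcam, Itgb4, Ehf, Cd24a and Slc12a8. Each had a library under 10 counts and was not in that fit, so these calls were not tested again. Muc13 itself has no control library with 10 counts and is not in that fit either. With no count filter there were 0 transcription factors and 2 neighbours, the second being Gm15657. Limma-voom called 0 transcription factors, as did the fit without both replicate 1 libraries, an alternative chosen after seeing the data. Leaving out single libraries gave 0 to 1 transcription factors and 2 to 4 signalling genes, the latter with 2 without Control replicate 2, 4 or 6. The r of Muc13 with Mir483 was 0.192, turned to -0.0857 as Spearman's rho and ran from -0.296 to 0.517 on leaving out single livers. The r of the summed duct markers with Muc13 turned from -0.321 to 0.317 without Aqp1. A block on the replicate number called 1530 genes. Under it Ehf (edgeR adjusted p = 0.0689) and Socs3 (0.0694) were not called, while Egfr (0.0147), Il6ra (0.0453) and Baiap2l1 (0.0065) were called lower. Deviations of same-numbered samples correlated at 0.49 for replicate 1 and at 0.015 to 0.194 for the others. Samples of different numbers were not compared in this way, so whether the numbers pair the samples is not settled. Of 1147 values of 61 named genes under alternatives, 1084 kept their direction and side of the threshold, 51 lost and 12 gained a call and 0 turned, and 50 genes had the same call throughout. Apart from genes that a filter took out or let in, the cause of these shifts was not tested. Counts under 10 in the controls limit any statement on the size of the Muc13 fold change.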

Other observations

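The descriptions of the samples carry animal numbers, which are 5, 12, 25, 26, 30 and 36 for Control replicates 1 to 6 and 6, 16, 17, 27, 28 and 29 for iTgMir483 replicates 1 to 6. Among the iTgMir483 livers, the animal numbered 6 had 199 Muc13 counts, those numbered 16 and 17 had 1532 and 3410, and those numbered 27 to 29 had 6929, 6337 and 7010. Mir483 counts did not follow these numbers in the same way, with 373 in the animal numbered 6, 761 and 442 in those numbered 16 and 17, and 318, 697 and 618 in those numbered 27 to 29. The labels do not say whether nearby numbers mark a litter, a cage or a date, so litter and animal cannot be told apart here.

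Apoa1, the main apolipoprotein of high-density lipoprotein, was also low in the liver with the least Muc13, with 3100 CPM in iTgMir483 replicate 1 and 10400 to 14000 CPM in the other 5. Its group difference did not pass the test (log2 fold change 0.19, SE 0.314, edgeR adjusted p = 0.710). Cps1, which fell as a group, was highest in the livers with most Muc13, with 1820, 1930 and 2380 CPM in iTgMir483 replicates 1 to 3 and 4340, 3960 and 4000 CPM in replicates 4 to 6 (r with Muc13 0.868, n = 6). The 3 livers with most Muc13 were thus the 3 with most Cps1, in a group where Cps1 was lower than in the controls. Cps1 and Apoa1 do not stand for the hepatocyte markers, whose r with Muc13 ran either way, from -0.845 for Apoa2 to 0.937 for Pck1. The other urea cycle gene named here, Ass1, had an r of 0.33.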
